A study of Mus musculus with 2 samples.

Results

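Serum amyloid and acute phase genes were followed in mouse lung that had received interleukin 17B (IL-17B) from an adenovirus. The set held 10 genes of the 17943 in the table, chosen by symbol: Saa1, Saa2, Saa3, Saa4, Orm1, Orm2, Orm3, Ptx3, Hp and Lrg1. Their choice was made with ratios of these same libraries in view, so the contrast below describes them and tests nothing. RNA sequencing was done on lung of wild-type mice of the inbred strain C57BL/6, which were 6 to 8 weeks old. Both groups received adenovirus by the nose for 3 days, either an empty vector (Adv-EV) or one for IL-17B (Adv-IL-17B), and there was no virus-free group among the samples analysed. The labels give 1 library per group although the design text speaks of triplicates. The labels do not say how many mice each library held or which promoter drove the vector. With 1 library per group there was no spread between replicates to set a difference against, so differences are described without a test or p-value.

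The acute phase response is the change in plasma proteins that follows injury or infection. IL-6, IL-1 and TNF act on the liver, where STAT3, C/EBP and NF-kappaB factors switch on genes for serum amyloid A, orosomucoid and haptoglobin. Some of these proteins are also made locally, and in the mouse Saa3 is the serum amyloid A gene known for expression outside the liver, in macrophages, epithelium and fat. Serum amyloid A proteins bind lipid and high-density lipoprotein and attract leukocytes.

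Values are FPKM, in which a gene's fragments are divided by its transcript length and by the mapped total of the library. Every ratio is that of Adv-IL-17B to Adv-EV, plain where an interval is given and of FPKM + 0.1 on the log2 scale. Numbers of fragments were estimated from the steps between low values, at about 5530000 fragments per library, a rough total that the fragments summed over genes exceeded (6020000 and 6040000). Intervals are exact 95% intervals from those estimated fragments and cover counting error only. Il17b, the delivered gene, was listed at 0 FPKM with the empty vector and at 93.2 with Adv-IL-17B. The lung genes Scgb1a1, for a club cell secretory protein, and Sftpc, for a surfactant protein, were the most abundant genes in both libraries. A gene was counted as higher or lower at a 2-fold difference in FPKM + 0.1, among the 15056 genes that averaged 0.5 FPKM or more, and all 10 acute phase genes met that minimum. Of the measured genes 3.95% were at least 2-fold higher with Adv-IL-17B and 2.68% at least 2-fold lower.

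All 10 genes stood higher in Adv-IL-17B than in Adv-EV. Of these 5 were at least 2-fold higher, namely Saa1, Saa3, Orm1, Orm3 and Ptx3, and 0 were lower. Their median log2 ratio was 1.18, beside -0.01 for all measured genes. Since the genes were picked with this contrast known, nothing is read from their count beside the 3.95% of all genes. Summed over the 10 genes, the level was 2514 FPKM with the empty vector and 7637 with Adv-IL-17B, or 0.466% and 1.40% of all FPKM in the table. Saa3 made up most of that, and the other 9 genes summed to 1060 and 1389 FPKM. In bulk lung tissue, more cells of a type and more RNA per cell cannot be told apart.

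**Figure D1:**
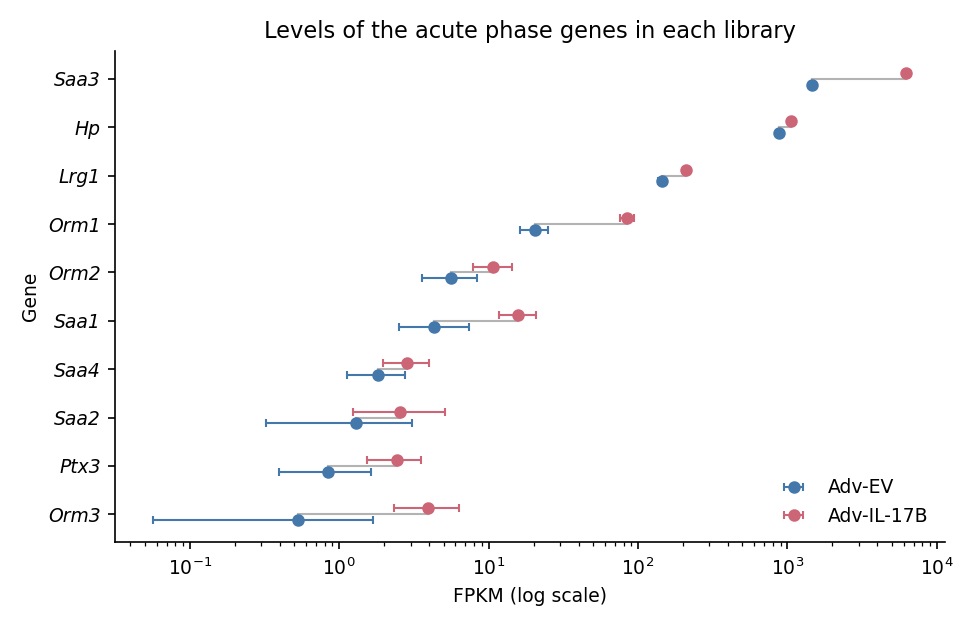
FPKM of the 10 acute phase genes on a log axis, in Adv-EV (blue) and Adv-IL-17B (red), 1 library each, with 95% intervals that cover counting error only. Saa3 stands at 1454 and 6248 FPKM, and the intervals of Orm2, Saa2, Saa4 and Ptx3 overlap between the libraries.

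Saa3 was the most abundant of the set in both libraries. It stood at 1454 FPKM in Adv-EV, on about 4458 fragments, and at 6248 FPKM in Adv-IL-17B, on about 19162 (ratio 4.30, interval 4.16 to 4.44). By level it ranked 23 among all genes with the empty vector and 3 with Adv-IL-17B, after Scgb1a1 and Sftpc. Its difference of 4794.5 FPKM was the largest increase of any gene in the table, ahead of the ferritin genes Fth1 at 2637 FPKM and Ftl1 at 1360.3 FPKM. Among the 57 genes that averaged 1000 FPKM or more it had the highest ratio, and the other of the 2 that were at least 2-fold higher was Retnla, with a log2 ratio of 1.06 beside 2.10 for Saa3. Lower in the range, larger ratios were more common, and by ratio Saa3 ranked 150 of the measured genes. No gene had a close match to its levels in both libraries. The nearest over the 2 libraries were Ftl1, Fth1 and B2m, at distances of 1.04, 1.16 and 1.26 on the log2 scale, all less than 2-fold higher.

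Saa1 and Saa2 encode the serum amyloid A proteins that the liver releases into plasma, and their levels in lung were far under that of Saa3. Saa1 stood at 4.31 FPKM with the empty vector and 15.7 with Adv-IL-17B, about 15 and 53 fragments (ratio 3.64, interval 1.96 to 6.75). Saa2 stood at 1.30 and 2.54 FPKM, about 4 and 9 fragments, just inside the 2-fold limit at a log2 ratio of 0.92, and its interval of 0.628 to 9.999 included equal levels. Saa4, which is known for steady expression with little acute response, had 1.83 and 2.83 FPKM, from about 21 and 33 fragments (ratio 1.55, interval 0.883 to 2.86). Saa3 made up 99.5% of the summed FPKM of the 4 genes with the empty vector and 99.7% with Adv-IL-17B. Saa1 made up 0.295% and 0.250%, so the level of Saa1 relative to Saa3 was similar in the libraries. The intervals of the ratios of Saa1, Saa2 and Saa4 overlapped each other, and those of Saa1 and Saa2 included the ratio of Saa3.

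Copies of the family share sequence, which bears on how far their levels can be told apart. The transcripts of Saa1 and Saa2 were 94.4% identical over 606 aligned bases, and those of Saa1 and Saa3 76.0% over 492. Of the 557 windows of 50 bases in the Saa2 transcript, 74 (13.3%) also occurred in that of Saa1. Saa1 and Saa3 shared 9 such windows, 1.61% of those of Saa1 and 1.78% of those of Saa3, all within 1 coding stretch of 58 bases at positions 164 to 221 of the Saa1 transcript and 189 to 246 of the Saa3 transcript. The stretch is shown because a fragment inside it could belong to either gene.
Shared stretch of Saa1 and Saa3: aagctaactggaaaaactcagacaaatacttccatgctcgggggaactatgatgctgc
In Adv-IL-17B the abundant Saa3 had about 19162 fragments and Saa1 about 53, and the part that fragments from the shared stretch had in the level of Saa1 was not tested. At the estimated step Saa2 came to 4.35 and 8.51 fragments and Saa1 to 14.5 and 52.8. How the authors assigned fragments that match several copies is not stated in the labels. Summed over Saa1 and Saa2, the level was 5.61 FPKM with the empty vector and 18.2 with Adv-IL-17B (3.25-fold higher).

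The 4 serum amyloid A genes lie within 42.3 kb of chromosome 7 of the mouse assembly GRCm38, which is mm10, in the order Saa3, Saa4, Saa1 and Saa2, and each measured transcript has 4 exons. Saa3 lies on the minus strand at chr7:46711998-46715700 and Saa1 on the same strand at chr7:46740497-46742980, while Saa2 lies on the plus strand at chr7:46751833-46754313. The measured genes on each side of the cluster were not higher to a like extent. Saal1, which lies 1.31 kb from the cluster, stood at 3.41 FPKM with the empty vector and 2.98 with Adv-IL-17B. On the other side Hps5, a gene of lysosome-related organelles, stood at 9.26 and 7.91 FPKM. Sergef stood at 7.81 and 6.18 FPKM and Gtf2h1, for a subunit of a general transcription factor, at 13.2 and 14.8. The intervals of the ratios of these 4 flanking genes included equal levels.

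The orosomucoid genes encode alpha-1-acid glycoproteins, lipocalins of plasma that bind lipids and many drugs. Orm1 stood at 20.3 FPKM with the empty vector and 84.3 with Adv-IL-17B, about 87 and 361 fragments (ratio 4.15, interval 3.28 to 5.31). Its rank among all genes by level was 4102 with the empty vector and 937 with Adv-IL-17B. Orm2 had 5.59 and 10.8 FPKM, from about 24 and 46 fragments (ratio 1.92, interval 1.15 to 3.28), just inside the 2-fold limit. Orm3 stood at 0.53 and 3.91 FPKM, from about 2 and 17 fragments (ratio 7.38, interval 2.02 to 75.8). That was the highest ratio of the set, but its interval included the ratios of Saa3 and Orm1. With a pseudocount of 1 its log2 ratio of 1.68 was under the 2.10 of Saa3 and also under that of Orm1. Its value in Adv-EV lay under the 0.702 FPKM that 3 fragments would give, the limit that a count of 0 allows. Orm1 made up 76.8% of the summed orosomucoid FPKM with the empty vector and 85.2% with Adv-IL-17B, and Orm2 made up 21.2% and 10.9%. The intervals of the ratios of Orm1 and Orm2 met only at their ends. Over the 2 libraries the genes nearest to Orm1 in level were Pla2g7, for a secreted phospholipase that degrades platelet-activating factor, AA467197 and Slfn4, at distances of 0.22, 0.25 and 0.29 on the log2 scale. Pla2g7 stood at 19.5 and 72.9 FPKM, AA467197 at 23.9 and 89.2 and Slfn4 at 20.1 and 103.3.

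The orosomucoid genes lie within 21.3 kb of chromosome 4 in the order Orm1, Orm3 and Orm2, all on the plus strand, and Orm1 lies at chr4:63344560-63348163. Orm1 and Orm2 transcripts were 91.0% identical, and 148 of the 726 windows of 50 bases of Orm1 (20.4%) also occurred in Orm2. Orm3 shared 26 of its 724 windows (3.59%) with Orm2, and came to 2.26 and 16.7 fragments at the estimated step. Summed over the 3 genes, which leaves out how fragments were split between them, the level was 26.4 FPKM with the empty vector and 99.0 with Adv-IL-17B (3.74-fold higher). The nearest measured genes were Akna at 1.25 kb and Whrn at 49.0 kb on one side, and Col27a1 at 9.57 kb and Rgs3 at 641.5 kb on the other. Akna, for an AT-hook protein, stood at 13.6 and 17.9 FPKM and Col27a1, a collagen gene, at 3.72 and 2.27. Rgs3, a regulator of G-protein signalling, stood at 24.6 and 26.0 FPKM, and Whrn at 1.45 and 1.71. The intervals of the ratios of Rgs3 and Whrn included equal levels. Those of Akna (ratio 1.31) and Col27a1 (ratio 0.610) did not, in opposite directions, and all 4 genes lay inside the 2-fold limits.

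**Figure D2:**
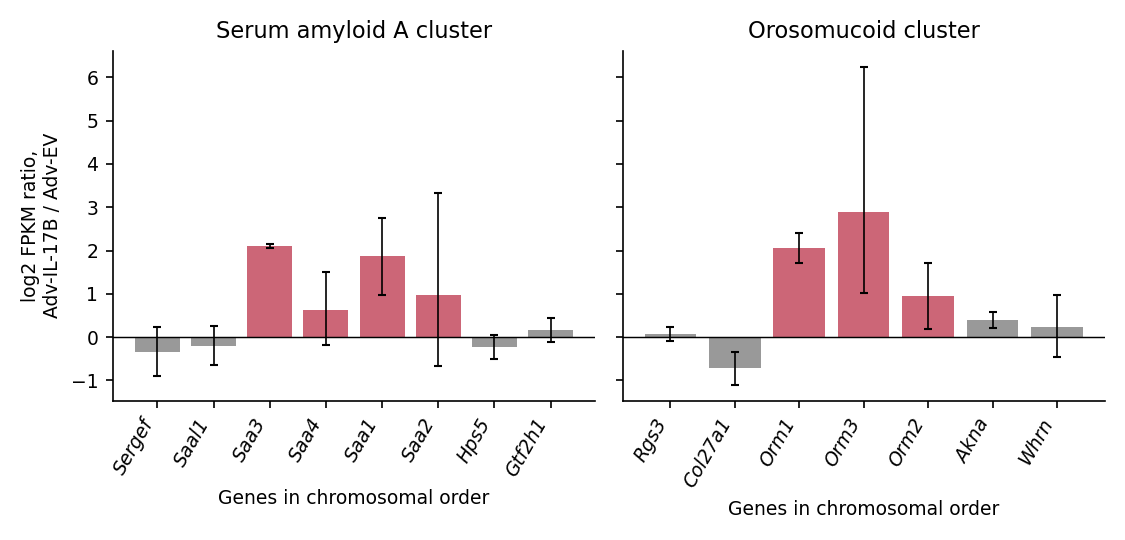
Log2 ratio of FPKM, Adv-IL-17B over Adv-EV, for the genes of the serum amyloid A cluster and the orosomucoid cluster in chromosomal order, with 95% counting intervals. Acute phase genes are red and the 2 measured genes on each side are grey. As plain ratios the grey genes run from 0.610 (Col27a1) to 1.31 (Akna). On the log2 axis all 7 red genes lie above 0, and the intervals of Saa2 and Saa4 include 0.

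Ptx3, Hp and Lrg1 encode acute phase proteins that are not related by sequence to these families or to each other. None of their windows of 50 bases occurred in a transcript of another gene. Ptx3 is a long pentraxin, a soluble receptor for microbes that myeloid, endothelial and stromal cells make on site. It stood at 0.84 FPKM with the empty vector and 2.43 with Adv-IL-17B, about 9 and 25 fragments (ratio 2.89, interval 1.25 to 6.76). Hp encodes haptoglobin, which binds free haemoglobin, and was already abundant in Adv-EV, at 880.1 FPKM and rank 68 of all genes. It stood at 1056 FPKM in Adv-IL-17B (ratio 1.20, interval 1.16 to 1.24), the smallest ratio of the set. Lrg1 encodes a leucine-rich glycoprotein that modulates TGF-beta signalling in endothelium. It stood at 145 FPKM with the empty vector and 210.3 with Adv-IL-17B, with 1128 and 1636 fragments behind these values (ratio 1.45, interval 1.34 to 1.57).

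Ratio and level were thus not ordered alike. Saa3 and Hp were the most abundant acute phase genes in both libraries, followed by Lrg1 and Orm1, and their counting intervals did not overlap within a library. Of these 4, Saa3 and Orm1 were about 4-fold higher in Adv-IL-17B, whereas Hp and Lrg1 were less than 1.5-fold higher. Under Orm1 the order differed between libraries. In Adv-EV it ran Orm2, Saa1, Saa4, Saa2, Ptx3 and Orm3, with each interval overlapping the one before from Saa1 down. In Adv-IL-17B it ran Saa1, Orm2, Orm3, Saa4, Saa2 and Ptx3, where Saa1 lay apart from Orm1 and Orm3 from Orm2 while the other neighbours overlapped.

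**Figure D3:**
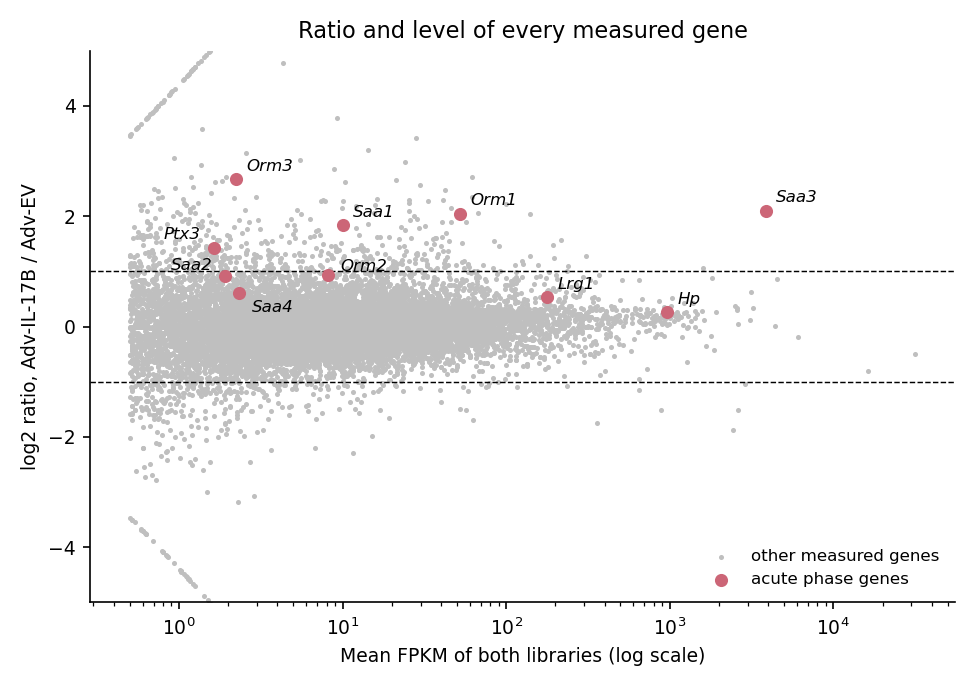
Log2 ratio of FPKM + 0.1, Adv-IL-17B over Adv-EV, against mean FPKM on a log axis for the 15056 measured genes (grey) with the 10 acute phase genes in red. Dashed lines mark 2-fold, and 84 grey genes lie beyond the plotted range of 5 on the log2 scale. Saa3 lies alone at the upper right, while Orm3, Ptx3, Saa2 and Saa4 lie at low levels where the grey points spread most.

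The bases upstream of these genes are shown because C/EBP factors, which drive acute phase transcription in liver, are known to act close to the start sites of such genes. RefSeq windows of 250 bases before the start site (build GRCm38.p6) were matched by symbol for 8 of the 10 genes, and Orm1 and Hp were not matched. The C/EBP motif was written as TTGCNNAA and searched on both strands. It was present in 7 of the 8 windows, those of Saa1, Saa2, Saa3, Saa4, Orm2, Orm3 and Ptx3 but not that of Lrg1, and in 9.56% of 32851 windows of all genes. Each of the 8 genes had 1 window, the one nearest the start of its measured transcript, whereas the 32851 windows were not picked in this way. In the windows below the matches are in capitals, and each is printed in the direction of its gene. Saa3 is at chr7:46715677-46715926 (minus strand), Saa1 at chr7:46742981-46743230 (minus), Saa2 at chr7:46751583-46751832 (plus), Orm3 at chr4:63355908-63356157 (plus), Orm2 at chr4:63362199-63362448 (plus) and Ptx3 at chr3:66219637-66219886 (plus).
Saa3: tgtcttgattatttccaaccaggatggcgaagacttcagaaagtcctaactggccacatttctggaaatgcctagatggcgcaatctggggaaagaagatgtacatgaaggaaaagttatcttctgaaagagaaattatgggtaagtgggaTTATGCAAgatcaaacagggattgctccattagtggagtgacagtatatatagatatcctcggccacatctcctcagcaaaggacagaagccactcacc
Saa1: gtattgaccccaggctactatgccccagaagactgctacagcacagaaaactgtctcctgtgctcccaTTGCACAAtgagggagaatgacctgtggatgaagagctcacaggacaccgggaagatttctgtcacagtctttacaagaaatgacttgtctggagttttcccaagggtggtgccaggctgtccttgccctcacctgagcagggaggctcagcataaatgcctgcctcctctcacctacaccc
Saa2: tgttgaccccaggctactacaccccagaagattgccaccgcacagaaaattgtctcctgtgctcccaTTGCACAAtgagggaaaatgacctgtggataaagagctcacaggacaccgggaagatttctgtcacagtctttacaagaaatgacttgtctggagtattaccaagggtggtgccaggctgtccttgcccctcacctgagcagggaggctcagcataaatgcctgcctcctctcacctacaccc
Orm3: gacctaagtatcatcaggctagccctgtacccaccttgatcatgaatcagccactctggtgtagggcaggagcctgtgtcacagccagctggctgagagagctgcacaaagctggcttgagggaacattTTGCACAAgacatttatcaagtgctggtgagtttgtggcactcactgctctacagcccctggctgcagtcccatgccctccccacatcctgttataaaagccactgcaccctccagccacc
Orm2: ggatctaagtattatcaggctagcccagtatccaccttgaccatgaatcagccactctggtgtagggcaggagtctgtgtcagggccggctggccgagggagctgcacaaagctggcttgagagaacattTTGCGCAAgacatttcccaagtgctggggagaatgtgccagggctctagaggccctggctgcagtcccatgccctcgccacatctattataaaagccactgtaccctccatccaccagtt
Ptx3: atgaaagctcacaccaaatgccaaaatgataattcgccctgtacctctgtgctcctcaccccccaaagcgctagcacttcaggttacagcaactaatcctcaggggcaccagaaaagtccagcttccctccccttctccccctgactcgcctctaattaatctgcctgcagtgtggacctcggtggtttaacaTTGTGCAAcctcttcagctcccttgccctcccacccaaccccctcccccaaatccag
Positions are counted from the RefSeq start sites, which are those of the measured transcripts for Saa1, Saa2, Saa4 and Orm2. The RefSeq start lies 23 bases upstream of the measured transcript in Ptx3 and 4 bases upstream in Orm3. It lies 24 bases downstream in Saa3 and 55 in Lrg1, so the last bases of those windows are inside the measured transcript. The match lay at positions -99 to -92 from the start site in Saa3, at -182 to -175 in Saa1 and at -183 to -176 in Saa2. It lay at -121 to -114 in Orm3, at -120 to -113 in Orm2 and at -57 to -50 in Ptx3. The windows of Saa1 and Saa2 were 95.6% identical and those of Orm2 and Orm3 89.0%, so matches within a pair are not independent. Saa4, with a log2 ratio of 0.60, held 2 matches. The STAT motif TTCNNNGAA was in 0 of the 8 windows and 7.02% of all windows, and the NF-kappaB consensus on both strands was in 0 of the 8 and 7.25% of all. Also searched, on the strand of the gene only, was the TATA motif TATAAA. It was in 2 of the 8 windows, those of Orm2 and Orm3, and in 7.59% of all, and is not in capitals above. A match is a stretch of letters and not a site shown to be bound. Only exact matches were searched, so a window without one may still hold a site that differs from the consensus. The absence of a match also says nothing of factors that may act elsewhere. Of the C/EBP genes themselves, named after their values were seen, Cebpb stood at 126 FPKM with the empty vector and 217 with Adv-IL-17B, Cebpd at 78.0 and 102 and Cebpa at 67.0 and 67.8, all inside the 2-fold limits. The ratio was 1.72 for Cebpb (interval 1.59 to 1.86), 1.31 for Cebpd (1.22 to 1.39) and 1.01 for Cebpa (0.926 to 1.11).

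Beside each list count below stand the 3.95% of all measured genes that were at least 2-fold higher and the 2.68% that were lower. Among cytokines that induce acute phase genes, 5 of 9 measured genes were at least 2-fold higher with Adv-IL-17B and 0 lower, and the median log2 ratio was 1.82. The higher genes were Tnf (3.39 FPKM with the empty vector and 16.9 with Adv-IL-17B), Il1a (1.91 and 8.63 FPKM), Il1b (14 and 49.7 FPKM), Il6 (0.67 and 2.71 FPKM) and Cntf. Il6, the main inducer in liver, rested on about 4 and 17 fragments (interval of its ratio 1.39 to 17.4). Cntf, for a ciliary neurotrophic factor, rested on about 1 and 6 fragments, its interval of 0.728 to 276 included equal levels, and with a pseudocount of 1 it lay inside the 2-fold limits. At 0.15 FPKM with the empty vector and 1.05 with Adv-IL-17B, Cntf met the minimum of 0.5 FPKM only through Adv-IL-17B. With a pseudocount of 1 the cytokine list had 4 genes higher and 0 lower. Its median log2 ratio was then 0.83, inside the 2-fold limit. Osm and Lif lay just inside the limit, at log2 ratios of 0.99 and 0.94, and Osm passed it with a pseudocount of 0.01. Receptors and transcription factors of the response differed less, with 1 of 19 measured genes higher, 0 lower and a median of 0.13 on the log2 scale. The 1 higher gene was Socs3, the feedback inhibitor of IL-6 signalling that STAT3 induces, at 21.3 FPKM with the empty vector and 58.9 with Adv-IL-17B (ratio 2.77, interval 2.42 to 3.17).

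Receptors and binding partners of the 10 proteins included 3 of 16 genes that were higher and 1 that was lower, and the median log2 ratio was 0.21. Fpr2, a formyl peptide receptor through which serum amyloid A attracts leukocytes, stood at 5.61 FPKM with the empty vector and 26.1 with Adv-IL-17B (ratio 4.66, interval 3.24 to 6.96). The related Fpr1 stood at 6.00 and 14.3 FPKM. Tlr2, a Toll-like receptor that serum amyloid A can engage, stood at 19.2 and 50.8 FPKM. The lower gene was Cd163, the scavenger receptor for haptoglobin bound to haemoglobin, at 1.71 and 0.79 FPKM, with about 42 and 19 fragments behind them (2.16-fold lower, interval 1.26 to 4.02), which lay inside the limits with a pseudocount of 1. Neutrophils and monocytes express Fpr1, Fpr2 and Tlr2. Of their markers, 6 of 17 and 4 of 14 were at least 2-fold higher with Adv-IL-17B and 0 lower (median log2 ratios 0.86 and 0.72), and the part of these cells in the receptor levels was not tested.

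Other positive acute phase proteins had 25 measured genes of 31 analysed. Of these 8 were at least 2-fold higher and 2 lower with Adv-IL-17B (6 and 0 with a pseudocount of 1). A log2 ratio above 0 was seen for 22, and the median was 0.88. The highest ratio was that of Il1rn, for the IL-1 receptor antagonist, at 17.0 FPKM with the empty vector and 75.6 with Adv-IL-17B. Slc39a14, a zinc and iron transporter gene of the acute phase liver, stood at 3.07 and 9.65 FPKM. The antichymotrypsin-like serpin genes Serpina3m (1.84 and 5.57 FPKM), Serpina3f (4.87 and 12.2 FPKM) and Serpina3c (1.12 and 2.79 FPKM) were higher as well, and they belong to a family of near copies whose reads may be split. Cfb, for complement factor B, stood at 117 and 276 FPKM, Mt2, for a metallothionein, at 31.2 and 68.1 FPKM and Hpx, for the haem carrier haemopexin, at 1.70 and 4 FPKM. The lower genes were Hamp, for the iron hormone hepcidin, on about 4 and 1 fragments, and Itih3, an inhibitor heavy chain gene, on about 13 and 5 fragments, and both intervals included equal levels. Hamp stood at 1.89 FPKM with the empty vector and 0.47 with Adv-IL-17B, and Itih3 at 0.76 and 0.31. Both met the minimum of 0.5 FPKM only through Adv-EV. Crp, for C-reactive protein, which is a minor acute phase protein in the mouse, stood at 0.53 and 0.37 FPKM. Of negative acute phase proteins, whose plasma levels drop in the response, 5 of 7 genes analysed were measured, 0 were higher and 1 was lower, and the median log2 ratio was -0.16. The list nevertheless summed to 208 FPKM with the empty vector and 286 with Adv-IL-17B, since most of it was Trf, for the iron carrier transferrin, at 186 and 269 FPKM (ratio 1.45, interval 1.38 to 1.52). The lower gene was Ahsg, for fetuin A, at 1.20 and 0.13 FPKM or about 10 and 1 fragments, and with a pseudocount of 1 it lay inside the limits. Ahsg also met the minimum of 0.5 FPKM only through Adv-EV.

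**Figure D4:**
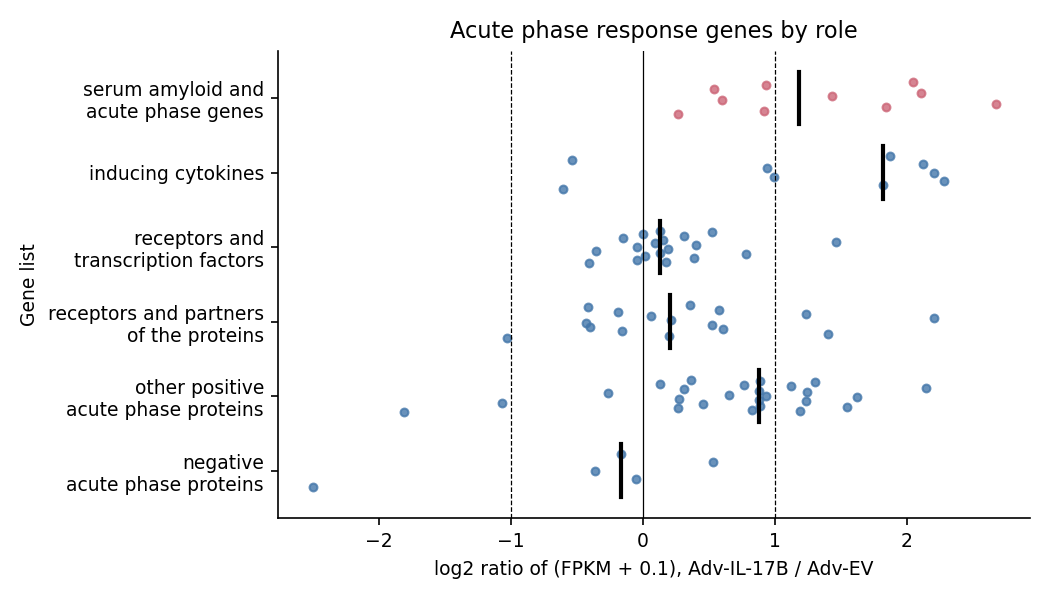
Log2 ratio of FPKM + 0.1, Adv-IL-17B over Adv-EV, for each measured gene of the lists named at the left, with the list median as a black bar and dashed lines at 2-fold. The 10 acute phase genes (red) all lie above 0. The lists of inducing cytokines and other positive acute phase proteins have medians of 1.82 and 0.88 beside 0.13 for receptors and transcription factors. With a pseudocount of 1, which is not drawn, these medians were 0.83, 0.78 and 0.12.

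Markers of the cells that can make these proteins were laid beside the set. Hepatocyte markers were nearly missing, with a summed level of 6.08 FPKM with the empty vector and 2.39 with Adv-IL-17B over 7 genes, and Alb, for serum albumin, stood at 0.26 and 0.09 FPKM. Tat, for a liver aminotransferase, was listed at 0 with Adv-IL-17B. The adipocyte list summed to 28.3 and 17.0 FPKM over 9 genes, where Lep and Retn were listed at 0 in Adv-IL-17B and Ucp1 in Adv-EV. In the other library Lep had about 2 fragments, Retn 8 and Ucp1 2. These sums rest on few genes, with Cyp2e1 at 3.69 and 1.73 FPKM in the hepatocyte list and Fabp4, which alveolar macrophages also express, at 14.8 and 11.3 FPKM in the adipocyte list. Among 17 measured neutrophil markers, 6 passed 2-fold upwards and 0 downwards (5 and 0 with a pseudocount of 1), and the list summed to 1789 FPKM with the empty vector and 3234 with Adv-IL-17B, of which Lcn2, also an acute phase gene, made up 1281 and 2360 FPKM. Ratios under 1 were seen for 4 of the 17, Camp, Mpo, Ngp and G0s2. Of these Camp, for an antimicrobial peptide of neutrophil granules, stood at 20.1 and 11.9 FPKM (ratio 0.592, interval 0.411 to 0.855). Of 14 monocyte and interstitial macrophage markers 4 were higher and 0 lower, and 13 had log2 ratios above 0. The sums of 7577 and 7557 FPKM were nearly equal, but Lyz2, the only gene below 0, made up most of them, at 6504 and 5700. Of 11 alveolar macrophage markers 3 were at least 2-fold lower and 0 higher, beside a median log2 ratio of -0.62 and sums of 499 and 329 FPKM.

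Epithelial and stromal markers differed in both directions. Of 11 airway secretory cell markers 2 were higher and 1 lower, and the median log2 ratio was 0.22 beside sums of 44281 and 30857 FPKM that Scgb1a1 dominated. The lower gene was Cbr2, for a carbonyl reductase, at 3860 and 1882 FPKM. The 2 higher genes were Reg3g, for an antimicrobial lectin, with a log2 ratio of 2.04 and Bpifa1, for a secreted airway defence protein, with 1.05, which lay inside the limit when Adv-IL-17B was rescaled by 0.948 to the FPKM outside the most abundant genes. Alveolar type 2 and type 1 markers had 0 genes past 2-fold, with medians of -0.25 and -0.38. The type 2 list summed to 26967 FPKM with the empty vector and 17285 with Adv-IL-17B, and the type 1 list to 4088 and 3173. Of 10 endothelial markers 3 were higher and 0 lower, and these were Sele, Selp and Ackr1, genes of venules that bind leukocytes or chemokines. With a pseudocount of 1 only 1 of these 3 was past 2-fold. Sele stood at 0.37 FPKM with the empty vector and 1.47 with Adv-IL-17B, on about 6 and 24 fragments. It met the minimum of 0.5 FPKM only through Adv-IL-17B. The other 7 endothelial markers had ratios below 0 on the log2 scale. The list median was -0.21 and the list summed to 1240 and 1074 FPKM. Fibroblast markers (1 of 10 lower, median -0.11) and mesothelial markers (1 of 5 measured lower, 0 with a pseudocount of 1, median 0.10) had medians near that of all genes. The fibroblast list summed to 1492 and 1040 FPKM, of which Inmt, its lower gene, made up 901 and 405. The mesothelial list summed to 248 and 257 FPKM. The part that any of these cell types had in the levels of the 10 acute phase genes was not tested.

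**Figure D5:**
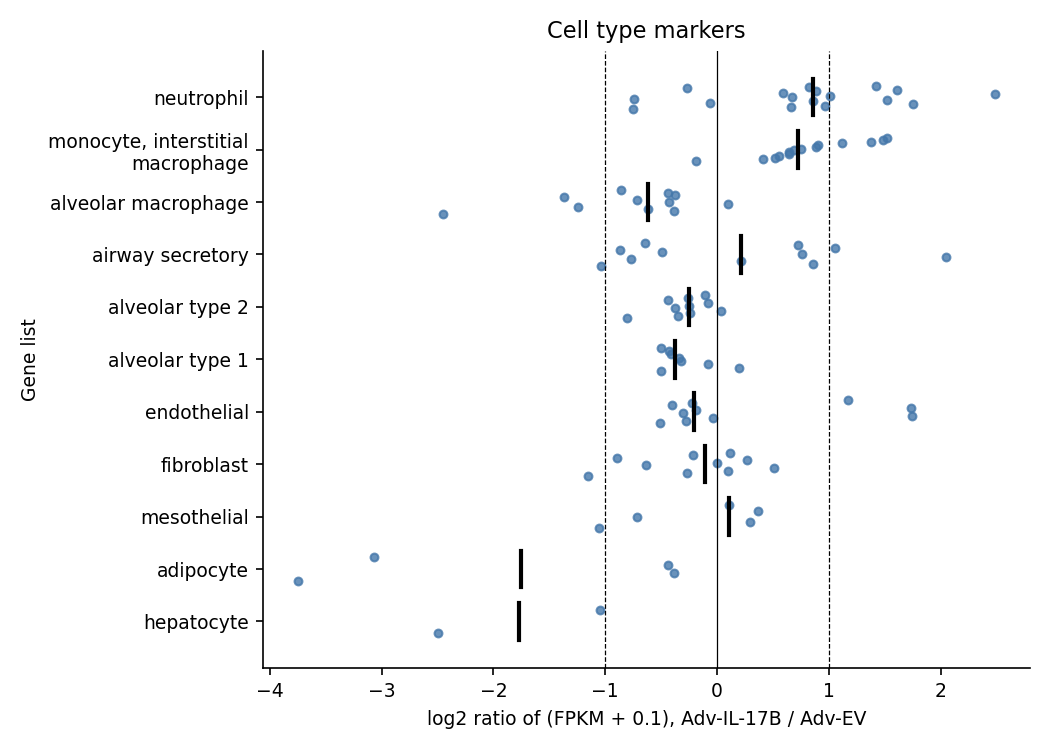
Log2 ratio of FPKM + 0.1, Adv-IL-17B over Adv-EV, for each measured marker gene of the cell types named at the left, with the list median as a black bar and dashed lines at 2-fold. Neutrophil and monocyte markers have medians of 0.86 and 0.72, alveolar macrophage markers -0.62, and only 4 adipocyte and 2 hepatocyte markers were measured.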

How the data were processed

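The authors deposited 1 table of FPKM values, with 1 column per library and 17943 genes, rounded to 2 decimals per the file headers and values. Bowtie2, HISAT and the build mm10 are named, without versions or roles, in the submitters' processing notes. The program that gave FPKM and its handling of shared reads are not stated there. Columns were assigned by sample titles, and 26 symbols stored as dates were restored from accessions.

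Computed here were log2 ratios of FPKM + 0.1 for genes that averaged 0.5 FPKM or more. Fragment numbers came from the step (0.181 FPKM per fragment and kb in both libraries) that best fitted 1487 and 1470 low values, of which 78.6% and 80.3% lay within 0.2 of a whole number. Steps from 0.01 to 1.5 were searched, with GENCODE M21 transcript lengths for 98.3% of genes. Ratio intervals were Clopper-Pearson intervals at 95%, level intervals exact Poisson intervals. Both used estimated fragments rounded to whole numbers. The step search was tested on simulated data. There the fragments were whole numbers and the lengths those used to make the data, so the test does not cover wrong lengths or split fragments. Python 3.11.15, scipy 1.17.1 and Biopython 1.88 were used.

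The 10 genes and all lists were chosen with earlier results of these data known. Named were the 10 genes, genes of the pathway lists past 2-fold, 2 measured genes on each side of both clusters, and the 3 genes nearest to Saa3 and Orm1. Cell type markers and Trf were named after their values were seen. Pseudocount, filter, size rule, scaling and summing of copies were varied.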

Additional observations from a re-analysis of the deposited data

How the results depend on the processing

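The 5 higher genes stayed at 5 without a filter, with a pseudocount of 0.01, with the median gene set at a log2 ratio of 0 and when Adv-IL-17B was rescaled by 0.948 to the FPKM outside the most abundant genes. They were 4, without Ptx3, with a pseudocount of 1, at a mean of at least 2 FPKM or under a 3-fold rule, and 8 under a 1.5-fold rule that also took in Saa2, Saa4 and Orm2. In each of these 0 were lower. Orm3 and Saa4 met the minimum mean of 2 FPKM only through Adv-IL-17B, where their levels were 3.91 and 2.83. With the empty vector they had 0.53 and 1.83 FPKM. The stricter minimum therefore kept Orm3, which rested on about 2 fragments with the empty vector, among the higher genes. The median log2 ratio of 1.18 was 0.87 with a pseudocount of 1, 1.24 with 0.01, 1.39 over the 8 genes that averaged 2 FPKM or more, 1.19 with the median gene at 0 and 1.11 after rescaling, and the mean was 1.33. With copies summed, Saa1 and Saa2 had a log2 ratio of 1.68 and the 3 orosomucoid genes 1.90, both past 2-fold where Saa2 and Orm2 alone were not. Saa1 and Orm1, past 2-fold by themselves, made up most of these sums, which therefore do not describe Saa2 or Orm2. Saa1 was 4.31 of 5.61 FPKM with the empty vector and 15.7 of 18.2 with Adv-IL-17B, and Orm1 was 76.8% and 85.2% of its sum. No value past 2-fold changed sign under these settings. No paired analysis was possible because each group has 1 library. Depth limits Saa2, Orm3 and Ptx3, each with under 30 fragments in each library, and 1 library per group leaves differences between mice unmeasured.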
